A study of Mus musculus with 4 samples.

Results

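Of 9598 FLAG-MIXL1 peaks in the deposited list, 733 fell in short, crowded parts of the genome, and these parts are described here. Each peak centre was assigned to a 1-Mb window, and windows with 20 or more peak centres were kept on chromosomes 1 to 19 without chromosome 12. This left 21 dense windows, or 0.915% of the 2295 windows of these 18 chromosomes, with 9.41% of their 7791 peaks. The windows were chosen by their number of peaks, so peak density is given as a description and nothing is tested on it. All positions are 1-based and refer to mm10.

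The peaks came from Mixl1-inducible mouse epiblast stem cells (EpiSC), which are pluripotent cells in culture that resemble the epiblast after implantation. Irradiated embryonic fibroblasts served as feeders, in medium with bFGF at 10 ng/mL and activin A at 20 ng/mL, and the embryoid bodies made from the cells spent 2 days in serum and were exposed to doxycycline (1 µg/mL) for their last 24 h. The 4 libraries were 2 precipitations with the anti-FLAG M2 antibody and 2 input chromatin samples, so the doxycycline induction was common to both groups. Cells without doxycycline and a mock precipitation were not analysed here, and no source used here names the mouse strain of the cells. All libraries entered only through 1 peak list, which holds positions and no score, so there is no value per library, no replicate error and no known depth.

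MIXL1 is a paired-type homeodomain transcription factor of the primitive streak. Homeodomains of this kind bind the core TAAT, and pairs of them bind palindromes of that core. The mouse genome also holds tandem clusters of near-identical genes, among them those for vomeronasal receptors, major urinary proteins and histocompatibility antigens, and stretches whose number of copies differs between inbred strains, of which the one around Glo1 is well known. Reads from such clusters are hard to assign to a single copy, and an extra copy in the cells adds reads to the copy in the assembly. The number of copies in these cells was not measured here, and its part in the peak density was not tested.

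The promoters below, from 3 of the dense windows, show how alike promoters of gene copies are, for pairs within a window on chromosomes 5 and 4 and for Vmn2r32 against a copy outside its window. Each is the RefSeq sequence of GRCm38.p6 from 250 bases before to 50 bases after the start of the gene, 300 bases in all, printed 5′ to 3′ in the direction of the gene, and each overlaps a peak. Capitals mark TAAT and its reverse complement ATTA.

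5031410I06Rik promoter: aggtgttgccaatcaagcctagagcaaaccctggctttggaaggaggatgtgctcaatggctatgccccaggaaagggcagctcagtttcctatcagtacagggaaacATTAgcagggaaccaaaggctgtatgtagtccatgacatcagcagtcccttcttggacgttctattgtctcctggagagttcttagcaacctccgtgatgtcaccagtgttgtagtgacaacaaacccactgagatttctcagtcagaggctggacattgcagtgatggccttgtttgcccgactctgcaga
Gm7347 promoter: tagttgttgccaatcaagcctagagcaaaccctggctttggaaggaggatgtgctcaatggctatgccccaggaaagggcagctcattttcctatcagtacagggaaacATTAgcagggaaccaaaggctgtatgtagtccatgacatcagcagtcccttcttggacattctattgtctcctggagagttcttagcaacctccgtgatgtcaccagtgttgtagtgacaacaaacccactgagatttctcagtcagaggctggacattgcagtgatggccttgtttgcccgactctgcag
Mup2 promoter: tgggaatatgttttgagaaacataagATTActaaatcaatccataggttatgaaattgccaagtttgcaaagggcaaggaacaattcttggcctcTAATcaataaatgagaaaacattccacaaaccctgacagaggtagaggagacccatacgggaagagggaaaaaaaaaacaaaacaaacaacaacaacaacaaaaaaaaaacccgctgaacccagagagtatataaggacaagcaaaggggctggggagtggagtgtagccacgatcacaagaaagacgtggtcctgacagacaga
Mup9 promoter: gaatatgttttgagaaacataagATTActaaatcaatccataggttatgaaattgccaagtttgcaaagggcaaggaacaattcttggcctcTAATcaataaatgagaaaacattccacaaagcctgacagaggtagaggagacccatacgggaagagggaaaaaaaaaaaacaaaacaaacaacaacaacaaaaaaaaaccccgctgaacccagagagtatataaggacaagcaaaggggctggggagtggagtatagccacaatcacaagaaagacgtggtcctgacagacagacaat
Vmn2r32 promoter: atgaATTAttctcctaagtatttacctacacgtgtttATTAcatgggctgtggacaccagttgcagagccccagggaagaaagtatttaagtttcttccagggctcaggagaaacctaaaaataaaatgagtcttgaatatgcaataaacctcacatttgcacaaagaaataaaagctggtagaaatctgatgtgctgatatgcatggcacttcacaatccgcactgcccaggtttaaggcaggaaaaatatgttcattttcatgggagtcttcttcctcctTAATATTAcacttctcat

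The first 2 sequences belong to the Rik gene 5031410I06Rik and the predicted gene Gm7347 of the chromosome 5 window that holds Speer4a, at chr5:26105265-26105564 and chr5:26058485-26058784 on the minus strand. They aligned with 296 identical bases, 3 differing bases and 2 gap bases. The Mup2 and Mup9 promoters, at chr4:60139807-60140106 and chr4:60421903-60422202 on the minus strand, aligned with 288 identical bases, 8 differing bases and 8 gap bases. The Vmn2r32 promoter, at chr7:7479924-7480223 on the minus strand, was identical over all 300 bases to that of Vmn2r49 on the same chromosome. The peak at 5031410I06Rik covered all 300 bases, whereas the peak at Mup9 reached only 18 of them. TAAT or ATTA occurred 4 times in the Vmn2r32 promoter, 2 times in each Mup promoter and 1 time in each of the chromosome 5 promoters.

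The windows held between 20 and 151 peaks, with a median of 29, while the median over all 2295 windows was 2. They lay on 11 of the 18 chromosomes, and 7 of them, with 311 peaks (42.4%), lay on chromosome 17. Just inside the limit were 5 windows with 20 to 22 peaks, and just outside it were 5 windows with 18 or 19, on chromosomes 5, 9, 11 and 13. Of these, the chromosome 5 window from 25 Mb and the chromosome 9 window from 47 Mb, with 18 peaks each, adjoin a dense window. Within 8 windows at least 50% of the peaks fell in 1 of the 10 parts of 100 kb, and in 9 windows the fullest such part held under 30%.

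**Figure D1:**
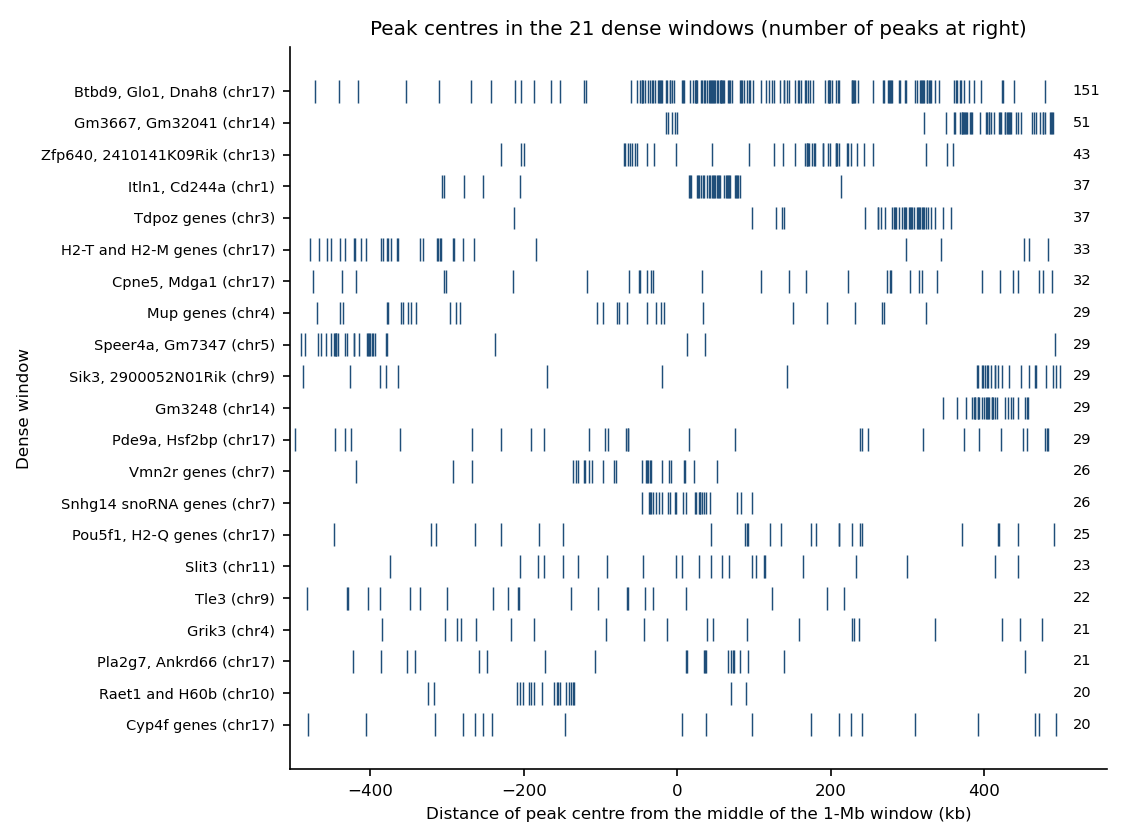
Each row is 1 of the 21 dense windows, named by genes in it, and each vertical line is a peak centre at its distance in kb from the middle of the window. The Itln1 and Cd244a window has 31 of its 37 peaks within 100 kb, whereas the 21 peaks of the Grik3 window are spread over most of its length.

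The window with the most peaks, chr17:30000001-31000000, held 151 peaks, 20.6% of all 733, and the next fullest was a chromosome 14 window with 51. Its peaks were concentrated over 3 neighbouring genes. Btbd9 encodes a BTB domain protein known from genetic studies of restless legs syndrome, Glo1 encodes glyoxalase 1, which detoxifies methylglyoxal, and Dnah8 encodes an axonemal dynein heavy chain needed for sperm movement. In parts of 50 kb, 9 successive parts from 30450001 to 30900000 held 9 to 21 peaks each, with a median of 14 and 131 peaks in all. The part before this stretch held 2 peaks and the part after it held 3, and the highest of the other 31 parts examined around it held 5. The limit of 8 peaks per part that defines the stretch was set after the counts were seen, so a fall at its edges follows from the definition.

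**Figure D2:**
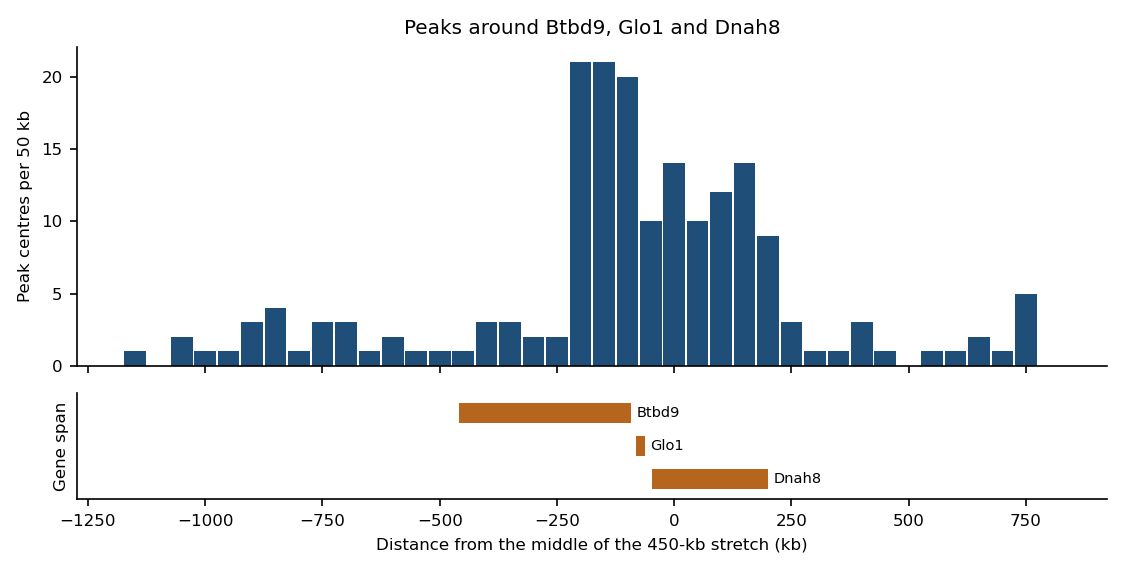
Bars give the number of peak centres per 50 kb, by distance in kb from the middle of the 450-kb stretch, and the lower panel gives the spans of Btbd9, Glo1 and Dnah8. The 9 parts in the stretch hold 9 to 21 peaks and the parts around it hold 0 to 5.

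The stretch began inside Btbd9 and its last part held the end of Dnah8. Btbd9 (chr17:30215524-30582621) held 66 peaks, 55 of them in the 132.6 kb that lie in the stretch and 11 in the other 234.5 kb. Per 100 kb of gene this is 41.5 peaks inside the stretch and 4.69 beyond it. Glo1 (chr17:30592861-30612659), the shortest of the 3 genes, held 4 peaks of 407 to 627 bp, or 20.2 per 100 kb. Dnah8 (chr17:30626935-30875762) lay wholly in the stretch and held 61 peaks, or 24.5 per 100 kb. The long gene before Btbd9, Zfand3, held 5 peaks, or 2.43 per 100 kb of its span. Peaks covered 17.4% of the 450 kb, and their median width was 446 bp, against 479 bp over the whole window. In the promoter table, 0 of the 8 genes of this window shared their promoter with another gene by the measure of repeated promoters given with the chromosome 14 windows.

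The windows on either side, from 29 Mb and from 31 Mb of chromosome 17, held 32 and 29 peaks. In both, the fullest 100 kb had only 6 peaks. In the upstream window, Cpne5, which encodes a copine, held 2 peaks, and Mdga1, which encodes a cell adhesion protein, held 1. The lncRNA Gm36199 had 5 peaks, as did Gm26885. In the downstream window, the cyclic GMP phosphodiesterase gene Pde9a and the meiotic gene Hsf2bp had 5 peaks each. Peaks in these 3 windows formed 1 run of 197 peaks over 2379 kb with no gap above 100 kb.

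Over all dense windows, 83 of 323 protein-coding genes had a peak centre inside their span, where the background over the 19882 protein-coding genes of the 18 chromosomes was 12%. The windows were chosen for their peaks, so nothing is read from this difference.

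A pair of windows on chromosome 14, from 5 Mb and from 6 Mb, held 29 and 51 peaks and consisted almost wholly of predicted genes. In the second, 46 peaks lay in 169.1 kb (chr14:6821446-6990574, 272 peaks per Mb), and 45 peaks of the window were inside the lncRNA Gm32041. In the 500 kb before this block there were 5 peaks and in the 500 kb after it 0. The predicted protein-coding gene Gm3667, which overlaps it, held 10 peaks, or 45.3 per 100 kb. In the first, all 29 peaks lay in 111.3 kb (chr14:5846252-5957567, 260.5 per Mb), with 20 inside Gm3248 and none in the 500 kb on either side. Both blocks were thus compact clusters over a few predicted genes. Of 48 genes of these windows with a promoter in the table, 44 had a repeated promoter, defined as one with at least 50% of its 24-base stretches also found in the promoter of a gene at another place.

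The chromosome 13 window from 66 Mb held 43 peaks, and the window before it held none. The block of 40 peaks extended over 429.9 kb (chr13:66429658-66859516) across predicted genes, vomeronasal receptor pseudogenes and Zfp640. This zinc finger gene of 10.53 kb held 4 peaks. The pseudogene Vmn2r-ps106 and the Rik gene 2410141K09Rik also held 4 each, and the lncRNA Gm40988 held 6. The promoter of 2410141K09Rik overlapped a peak of 464 bp and resembled that of Gm45966, with 268 identical bases, 14 differing bases and 36 gap bases. Repeated promoters made up 7 of 14 genes in this window.

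The most compact cluster lay in the chromosome 1 window from 171 Mb. There 31 of 37 peaks fell in 67.2 kb (chr1:171514733-171581881), which is 461.7 peaks per Mb, and they covered 47.3% of that length. Cd244a, a receptor of the SLAM family on natural killer cells, held 11 peaks, or 41.4 per 100 kb. Itln1, which encodes intelectin, a lectin of the gut mucosa, held 7, or 40.7 per 100 kb. The number of intelectin genes is known to differ between inbred mouse strains. Outside the cluster, 5 peaks lay in the 500 kb before it and 1 in the 500 kb after it. Peaks in this block were wide, with a median of 969 bp, and 40.5% of the window's peaks were 1 kb or wider. None of its 35 genes in the promoter table had a repeated promoter. The SLAM family genes Slamf1, Slamf6, Slamf7 and Ly9 of the same window contained no peak centre.

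**Figure D3:**
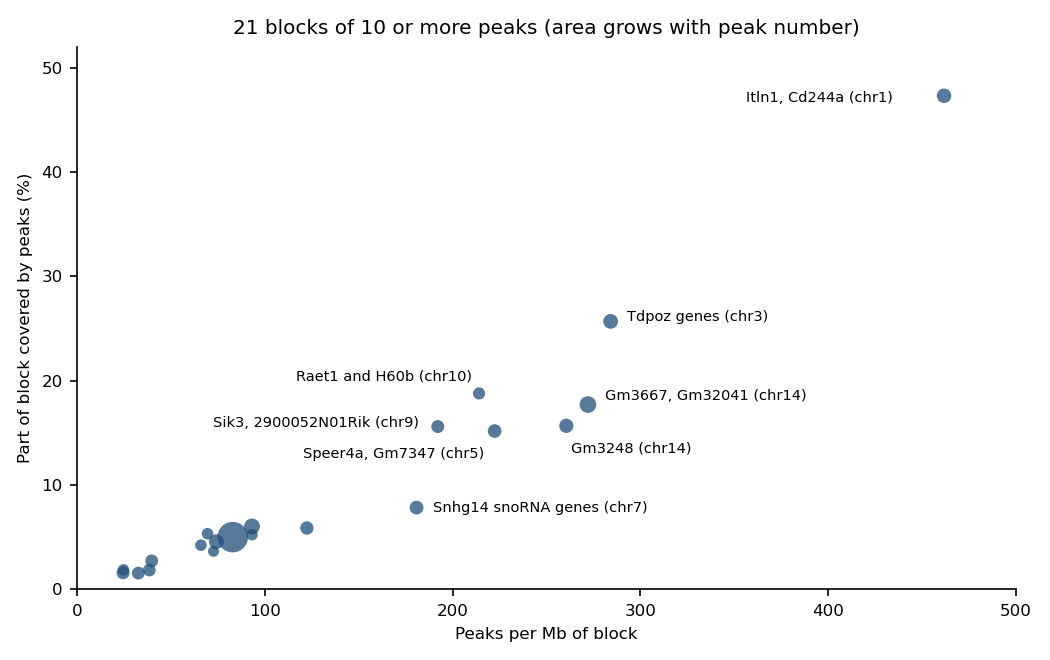
Each point is 1 of 21 blocks, runs of 10 or more peaks in dense windows with gaps of at most 100 kb, placed by its peaks per Mb and by the percentage of its length that peaks cover. The Itln1 and Cd244a block stands at 461.7 peaks per Mb and 47.3%, and the Tdpoz block follows with 284.1 peaks per Mb and 25.7%.

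The chromosome 3 window from 93 Mb also held 37 peaks, 32 of them in 112.6 kb (chr3:93744927-93857543) around genes of the Tdpoz family, which encode proteins with a TRAF domain and a POZ domain. Of the 8 Tdpoz genes on the 18 chromosomes, 6 lay in this window, and Tdpoz3 and Tdpoz4 had 1 peak centre each inside their short spans. Most peaks of the window, 86.5%, lay outside every annotated gene. The widest of these, 2575 bp (chr3:93778306-93780880), lay 15.5 kb from Tdpoz4. Filaggrin, Flg, at the other end of the window, held 1 peak.

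A pair of adjacent windows covered much of the histocompatibility complex on chromosome 17. The window from 35 Mb held 25 peaks and the window from 36 Mb held 33. Of the 46 genes with an H2 symbol on the 18 chromosomes, 29 lay in these windows. A peak centre lay inside 2 of the 29, H2-T3 with 2 peaks and the pseudogene H2-T10 with 1, where 148 of all 939 genes in dense windows had one. The block of 33 peaks from 35870262 to 36315568 spanned the H2-T genes, and the fullest 100-kb part of the second window held 13 peaks. Gm6034 held 2 peaks and Gm8909 held 1. Of the peaks in the first window, 24.0% were at most 1 kb from the start or the end of a coding gene. Among them were peaks at Lst1, Nfkbil1 and Cdsn. Clic1, which encodes a chloride channel protein, held 1 peak. Ppp1r10, which encodes a regulator of protein phosphatase 1, had 2 peaks. Pou5f1, which encodes the pluripotency factor OCT4, also lies in this window. Of 30 genes of the primitive streak and pluripotency list, 3 are on chromosome 12, which was not searched, and of the others Pou5f1 alone was in a dense window. Of all 19882 protein-coding genes of the 18 chromosomes, 323 (1.625%) lay in dense windows, so nothing is read from this 1 gene. Pou5f1 held no peak centre itself and was 32.4 kb from the nearest peak, with 4 peaks within 100 kb.

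The chromosome 4 window from 60 Mb held 29 peaks among the major urinary protein genes, which encode pheromone carriers made in the liver. It contains 10 coding Mup genes and 12 Mup pseudogenes, 22 of the 45 genes of this family. Of these, 5 peaks touched a Mup gene, and the median distance from a peak to the nearest was 6.01 kb, with a maximum of 18.5 kb. This count was not set against the share of the window that Mup genes span, so it shows no preference. Mup2 and Mup9, whose promoters are printed above, had 1 peak each, and the pseudogene Mup-ps1 had 2. The peaks were narrow, with a median of 366 bp, the lowest of the 21 windows.

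In the chromosome 5 window from 26 Mb, 25 of 29 peaks lay in 112.4 kb (chr5:26009425-26121874, 222.3 per Mb), with another 17 in the 500 kb before that block. Its genes include Speer4a, of a family of glutamate-rich proteins of the testis, with 1 peak, the predicted gene Gm7347 with 4 and the Rik gene 5031410I06Rik with 3. Repeated promoters under a peak were those of 5031410I06Rik, Gm7347, Gm10220 and Gm46906. The Gm10220 promoter shared 248 bases with that of 5031410I06Rik without a differing base, offset by gaps of 104 bases in all. Repeated promoters made up 10 of 15 genes.

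The chromosome 9 window from 46 Mb held 29 peaks, 21 of which formed a block at its end (chr9:46889606-46998952, 192 per Mb), and the next window held 18. The lncRNA 2900052N01Rik lies there and its promoter overlapped a peak. Sik3, which encodes a salt-inducible kinase, lies earlier in the window and held 4 peaks. One of them, 5441 bp long (chr9:46132724-46138164), was the widest of all 733.

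The chromosome 7 window from 7 Mb held 26 peaks, 23 of them in 188.1 kb (chr7:7363606-7551707) over type 2 vomeronasal receptor genes, which encode pheromone receptors. Vmn2r32 held 3 peaks and Vmn2r31 held 2. The misc_RNA gene Gm3912 held 3, and the zinc finger gene Zfp772 at the edge of the cluster held 1. Of the 616 vomeronasal receptor genes and pseudogenes on the 18 chromosomes, 21 lay in this window or in the chromosome 13 window. Of these 21, 6 had a peak inside, and of all 939 genes in dense windows 148 had one. Among the 595 elsewhere, 5 (0.840%) did. Over all genes outside the dense windows this share was 7.18%, and over pseudogenes, which form part of the family, it was 0.485%. The windows were chosen for their peaks, so nothing is read from the difference between genes inside and outside them. Olfactory receptors, which form another large receptor family, had 0 of 1416 genes in a dense window, against 2.11% of all 44538 genes.

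The second chromosome 7 window, from 59 Mb, held 26 peaks, every one inside the lncRNA gene Snhg14 and none inside a protein-coding gene. Snhg14 is the long imprinted host transcript of small nucleolar RNAs in the Prader-Willi and Angelman region, and it is expressed from the paternal chromosome. The peaks lay in 143.9 kb (chr7:59453266-59597142, 180.7 per Mb) with no peak in the 500 kb on either side. Between the first and the last peak are 71 of the 206 small nucleolar RNA genes of the window, most under predicted gene names. Of the peaks, 8 overlapped such a gene. The overlap that closely spaced genes would give anyway was not computed, so nothing is read from this count. The median spacing of the RNA genes was 1.87 kb and the median gap between peaks 3.96 kb. The 17 genes of the window with a Snord116 symbol begin 264.6 kb after the last peak. Nearer to it, from Gm23862 at 59673461, lie RNA genes of about the same length, 0.094 kb, under predicted names. The window held no peak beyond the 143.9 kb, and therefore none at these genes or at Ube3a.

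In the chromosome 11 window from 35 Mb, 19 of 23 peaks lay inside Slit3, which encodes a secreted guidance ligand of Robo receptors. Slit3 spans 587.1 kb, so this is 3.24 peaks per 100 kb of gene. In the chromosome 9 window from 61 Mb, 22 peaks were spread around Tle3, a corepressor of the Groucho family with 1 peak, and the lncRNA B930092H01Rik held 4. In the chromosome 4 window from 125 Mb, Grik3, a kainate receptor gene, held 4 of 21 peaks and the lncRNA Gm32611 held 5. In the chromosome 17 window from 43 Mb, 12 of 21 peaks lay in 128.9 kb over Pla2g7, which encodes the platelet-activating factor acetylhydrolase, with 5 peaks, and Ankrd66, with 3.

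In the chromosome 10 window from 22 Mb, 16 of 20 peaks lay in 74.8 kb (chr10:22291103-22365877, 214 per Mb) that run into Raet1d, which held 2 peaks. Raet1e also held 2 peaks, but it ends at 22189697, before this block. These genes and H60b, in the same window, encode ligands of the NKG2D receptor of natural killer cells. The median width in this window, 694 bp, was the highest of the 21. The chromosome 17 window from 32 Mb held 20 peaks. Cyp4f16 and Cyp4f17, of the cytochrome P450 family, held 1 peak each, and the promoters of the zinc finger genes Zfp811, Zfp472 and Zfp952 overlapped peaks.

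Properties that the choice of windows did not use were compared between the 733 peaks and the 7058 other peaks of the same chromosomes, by Fisher's exact test (two-sided), and p-values were adjusted over the 5 shares by the Benjamini-Hochberg method. Peaks of the same window are not independent, which makes the p-values too small, and they do not cover the spread between cultures. Intervals are 95% Wilson intervals for shares and the intervals built from them for differences, and cover counting of peaks only.

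Genes of other types, such as lncRNAs and pseudogenes, held more of the peaks. In dense windows 139 peaks (18.96%, interval 16.3 to 21.96) lay inside such genes only, against 9.75% elsewhere, a difference of 9.22 percentage points (6.45 to 12.3, adjusted exact p = 6.713e-12). The single windows ranged from 0% to 100%, with 11 above the other peaks' share and 10 below it, so the excess came from some windows, with Snhg14 and Gm32041 the fullest. The Snhg14 window gave 26 of the 139 peaks and the Gm32041 window gave 36. Without the Snhg14 window the difference was 6.24 points and without chromosome 17 it was 17.3 points, both in the same direction. The difference without both the Snhg14 and the Gm32041 windows was not computed, so how far the excess reaches beyond them is not known. Peaks inside protein-coding genes made up 40.4% (36.9 to 44.0) against 44.5%, a difference of -4.15 points (-7.83 to -0.374, adjusted exact p = 0.03957). That small difference depended on the Btbd9, Glo1 and Dnah8 window, 90.7% of whose peaks lay in protein-coding genes. Without that window it was -17.2 points, and with only windows of 30 or more peaks it was 4.79 points with an adjusted exact p of 0.09129.

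Peaks outside every gene were 33.3% (29.97 to 36.8) of the dense windows' peaks and 38.4% of the others, a difference of -5.15 points (-8.66 to -1.48, adjusted exact p = 0.01086). This direction also rested on the Btbd9, Glo1 and Dnah8 window, since without it the difference was 1.94 points (adjusted exact p = 0.3757). In 12 of 21 windows the share was above that of the other peaks. Closeness to gene ends did not differ detectably. At most 1 kb from either end of a coding gene, start included, lay 54 peaks (7.37%) against 7.28%. This is a difference of 0.084 points (-1.71 to 2.29, adjusted exact p = 0.9405), although at 5 kb the difference was 5.88 points (adjusted exact p = 0.0002326).

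**Figure D4:**
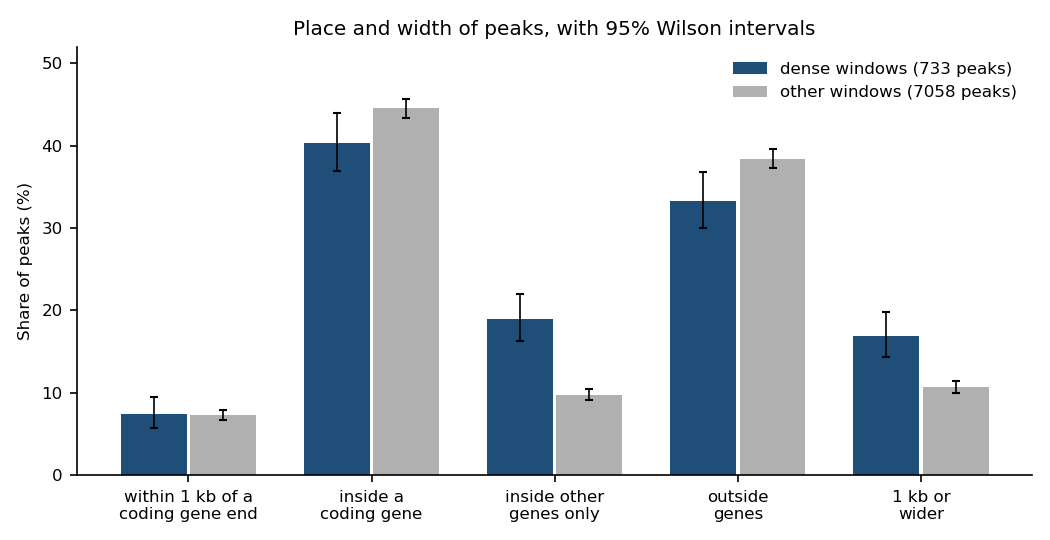
Bars give the share of peaks in percent with 95% Wilson intervals for the 733 peaks of dense windows and the 7058 other peaks of the same chromosomes. Peaks inside genes of other types only (18.96% against 9.75%) and peaks of 1 kb or wider (16.9% against 10.7%) are higher in dense windows and peaks outside genes (33.3% against 38.4%) are lower, each with intervals that do not overlap between the groups.

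Wide peaks were more frequent in the dense windows. Of the 733 peaks, 124 (16.9%, 14.4 to 19.8) were 1 kb or wider, against 10.7% of the others, a difference of 6.22 points (3.57 to 9.19, adjusted exact p = 3.799e-06), and 14 of 21 windows were above the other peaks' share. The Cd244a window had the highest share, 40.5%, and the Tle3 window had none. Median widths were close, at 494 bp (quartiles 343 and 793) and 473 bp (347 and 697), so the groups differed in their wide peaks more than in the typical one. The 5 widest peaks of the dense windows were those in Sik3 (5441 bp), Gm3248 (2743 bp) and Trim26 (2388 bp) and those near Tdpoz4 (2575 bp) and H60b (2562 bp, 18.98 kb away).

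Sequence shared between genes set some of the windows apart from the others. Of 421 genes in dense windows with a promoter in the RefSeq table, 84 (20.0%) had a repeated promoter, against 967 of 24287 genes (3.98%) in the other windows. No test was made, since copies of a gene lie side by side. The chromosome 14 windows gave 44 of the 84, and without them the count was 40 of 373 (10.7%). Repeated promoters made up at least 50% of the genes in 5 windows, those of Gm3248, Gm32041, Speer4a, the Vmn2r genes and Zfp640. In 10 windows there were none, among them those of Btbd9, Cd244a, Slit3 and Snhg14, where promoters of only 2 genes were in the table. The dense windows therefore included both multicopy gene families and places where annotated promoters were single. Whether other repeated sequence lies in windows with a count of 0 was not examined, because genome sequence was not used here.

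**Figure D5:**
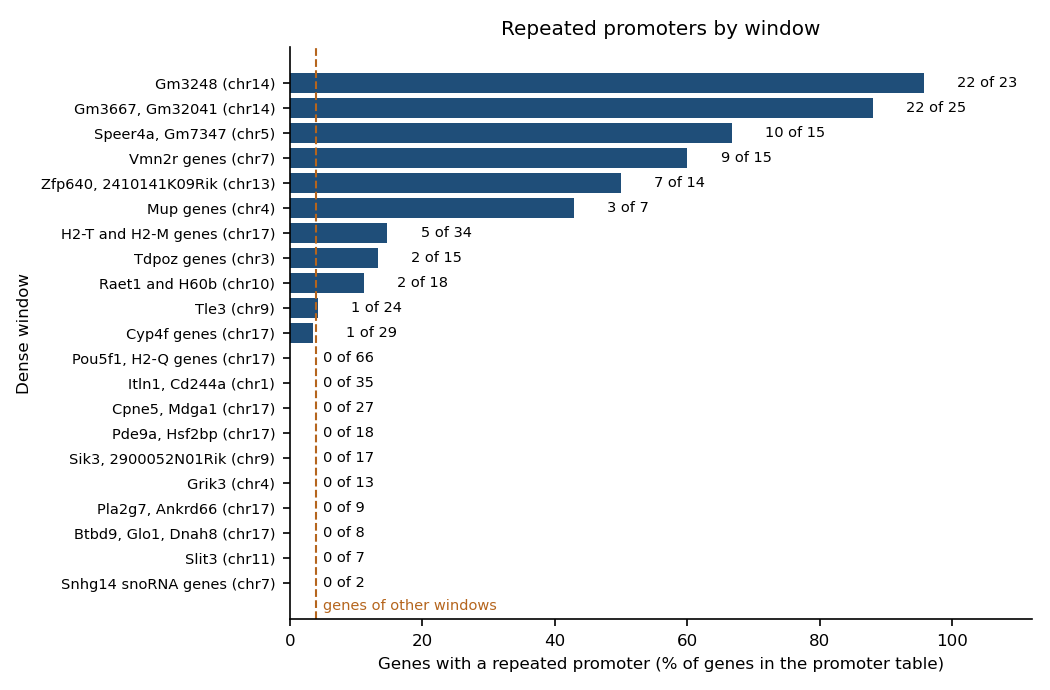
Bars give the percentage of genes with a repeated promoter in each dense window, with the number of such genes and of genes in the promoter table beside each bar, and the dashed line gives the 3.98% of genes in other windows. The chromosome 14 windows reach 95.7% and 88%, and 10 windows are at 0.

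Promoters that overlapped a peak belonged to 32 genes of the dense windows, and 9 of these genes (28.1%) had a repeated promoter. In the other windows they belonged to 339 genes, of which 9 (2.65%) had one. Over all genes in the promoter table, with or without a peak, the shares were 19.95% in dense windows and 3.98% in the others. The contrast between the windows was thus present without regard to peaks, and 32 genes are too few to read 28.1% against 19.95%. None of the 32 genes lay in the chromosome 14 windows. The 9 in the dense windows were the 8 genes 5031410I06Rik, Vmn2r32, Gm10220, Gm46906, Mup2, Gm7347, Mup9 and 2410141K09Rik, and Gm8909 of the histocompatibility complex. Promoters of Itln1, Fbll1, Cdsn, H2-T22 and Rcan2 also overlapped peaks, and none of their 24-base stretches recurred.

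The core TAAT was searched on both strands over the whole of each promoter. A promoter counted as under a peak if any of its bases overlapped one, so a core may lie outside the peak. The core was found in 30 of the 33 promoters under peaks of dense windows and in 72.2% of 410 promoters under any peak. Over all 30119 promoters of the 18 chromosomes the share was 57.9%. The Mup9 peak, for example, reached 18 bases of the promoter, and neither core of that promoter lies in them. How many cores lie beneath a peak was not counted. The palindrome TAATNNATTA occurred in 0 of the 33 and in 0.395% of all promoters. TAATNNNATTA occurred in 1 of the 33 and in 0.508% of all. Near-identical copies count more than once among the 33, and promoters under a peak are few, so these shares only describe the sequences.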

How the data were processed

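FLAG-MIXL1 chromatin from mouse EpiSC embryoid bodies was sequenced in 2 FLAG and 2 input libraries. The submitters' processing notes name mm10 as the build and MACS2, SAMtools, Bowtie2 and CASAVA 1.8.2 as tools. The authors deposited 1 list of peaks, whose other values are a start and an end. The name of that list carries short tags, bl and uniq among them, that no source used here explains. Peak threshold, filters, treatment of reads that map to several places, use of the input and any pooling are not spelled out in these sources. Depth is unknown.

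The dense windows, gene lists and families were chosen with earlier results of these data known. Genes came from the RefSeq table of GRCm38.p6, which gives spans without strand or exons. Genes ending in the first 3 Mb of a chromosome (442 genes) were left out, which left 49555, of which 21761 were protein-coding. The centre of a peak set its class: at most 1 kb from a protein-coding gene end, else inside a protein-coding gene, else inside another gene, else outside. Both the start and the end of a gene's span count as gene ends. Named genes are Btbd9, Glo1 and Dnah8, up to 3 protein-coding genes and 1 other gene with the most peaks per window, up to 2 per family, genes of the development list, and the 5 widest peaks. Genes mentioned beside them were chosen after their values were seen, such as Slamf1, Trim26 and those listed with a promoter under a peak. 1 gene that the rule takes is not reported here. Of the 8 promoters that the rule takes, 5 are printed. A planned comparison of proteins was left out, since protein sequences were not used here. The steps were tested on simulated data. Tools were scipy 1.17.1, numpy 2.4.6, Biopython 1.88, pandas 2.3.3 and matplotlib 3.10.9 under Python 3.11.15.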

Additional observations from a re-analysis of the deposited data

Results flagged for a closer look

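Peaks on unplaced and unlocalised contigs, which the choice of windows leaves out, showed dense clusters as well. Of 195 such peaks on 16 contigs, 153 lay on 4 contigs assigned to chromosome 1, with 50, 43, 36 and 24 peaks over spans of 127.6 to 210.8 kb. No input or control peak list was analysed here beside them.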

How the results depend on the processing

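No paired analysis was possible because the replicates enter only through 1 peak list without columns per library. The main limits are that depth, replicate error and the copy number of the cells are unknown, and that a peak in a multicopy family cannot be assigned to 1 copy from this list. The comparison of repeated proteins was not run, since protein sequences were not used here.

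With a minimum of 15 peaks there were 42 dense windows with 1074 peaks, and with a minimum of 30 there were 7 with 384 peaks. Without chromosome 17, 422 peaks remained. Windows shifted by 500 kb gave 18 dense windows and kept 571 of the 733 peaks. Joining peaks under 1 kb apart, an alternative chosen after seeing the data, left 18 of 21 windows and 518 peaks. The share near gene ends differed by 5.878 points at 5 kb (adjusted exact p = 0.0002326), by -0.8511 without chromosome 17 and by -1.642 at a minimum of 30. The share outside genes differed by 2.932 points without chromosome 17, by -1.364 at a minimum of 15 (adjusted exact p = 0.4969) and by 1.939 without the window of the most peaks, which was also chosen after seeing the data. The share inside protein-coding genes differed by 4.794 points at a minimum of 30. The cause of these changes was not tested. With 90% of stretches required, 43 genes had a repeated promoter. Of 37 alternative values, 25 kept the direction and side of the threshold or, for counts, were graded as the same. That grade was loose for counts, since it took in 1074 and 518 peaks against the main 733. The 25 include every alternative run for peaks of 1 kb or wider and for genes of other types. For the latter, no alternative left out both the Snhg14 and the Gm32041 windows.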
